A study of Rattus norvegicus with 4 samples.

Results

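The glutamate, GABA and glycine receptor subunits are the genes through which a neuron reads the fast transmitters of the retina. They were taken by symbol, as genes with a probe set of a single platform symbol of the forms Gria, Grik, Grin, Grid, Grm, Gabr, Gabbr, Glra and Glrb. There were 46 of them among 14218 genes with such a probe set, measured by 78 probe sets. For each gene the probe set with the highest mean of the 4 arrays was used, and 33 of the 46 were bright enough to be tested. The remaining 13 lay under the limit for dim probe sets (4.77 log2, the lowest 30% of all probe sets) and are described without a test.

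The RNA came from neurospheres, floating clusters of dividing cells and their progeny, grown from the dissociated retina of Sprague Dawley rat embryos at embryonic day 18. All cultures received epidermal growth factor (EGF). One group of 2 arrays received EGF alone, and the other group of 2 arrays received, besides EGF, medium in which endothelial cells (the lining of blood vessels) had grown. Embryos were pooled for each round of culture, and a further pool supplied the replicates, so the arrays of a group are pooled cultures. On quantile normalized and median-centred values the p-values draw on each gene's spread between these cultures, moderated over genes. As deposited, they rest on the spread typical of genes of similar brightness and not on the gene's own. The comparison asks how conditioned medium alters the receptor genes of cultures that already receive EGF, and every difference below is conditioned medium minus EGF alone.

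As background, ionotropic glutamate receptors (AMPA, kainate and NMDA types) are cation channels that excite the cell, and metabotropic glutamate receptors act through G proteins. GABA-A and glycine receptors are chloride channels, and GABA-B receptors are G protein coupled. In the retina photoreceptors and bipolar cells release glutamate, whereas amacrine and horizontal cells are the main sources of GABA and glycine. The direction of a GABA or glycine response depends on the chloride gradient, which the importer Slc12a2 raises and the exporter Slc12a5 lowers inside the cell.

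Of 7 markers of retinal neuroepithelium on the array (among them Pax6, Rax and Six3), all 7 lay above the dim limit. So did 11492 of all 14218 genes, so passing this limit does little to check the tissue label. As deposited, the median of an array was 6.03 or 6.25 log2 for EGF cultures but 6.84 or 6.56 log2 for conditioned-medium cultures, so the arrays were not equalised. The values were therefore examined on 3 scalings, namely quantile normalized, as deposited and median-centred, on which the median difference of the 11492 genes tested was 0.00, 0.40 and -0.16 log2. A gene is said to have risen or fallen only if limma's adjusted p was under 0.05 in the same direction on all 3 scalings. For falls the deposited values decided the call: 205 genes were lower on them alone and 205 on all 3 scalings. The other scalings removed none, so their agreement adds no support to a fall. Unless another scaling is named, a size is the log2 difference after quantile normalization, given with its standard error (SE) from limma. Brightness depends on the probes, so the level of a gene is compared between arrays and never with that of another gene. The gap between the 3' and 5' actin control probe sets was 1.99 and 2.08 log2 in EGF cultures, against 1.54 and 1.37 log2 under conditioned medium, and its part in the results was not tested. In bulk RNA, fewer cells of a type and less RNA per cell cannot be told apart.

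Of the 33 receptor genes tested, 2 fell and 0 rose with conditioned medium: Glra2, an alpha subunit of the glycine receptor, and Gria4, an AMPA receptor subunit. By the same rule 1.78% of all genes fell and 9.12% rose, and the 2 falling members are 6.06% of those tested, a share that rests on only 2 genes. At an unadjusted p under 0.05 on all 3 scalings in limma, 2 members were lower and 2 were higher. The share of all genes at this looser rule was not computed, so these counts have no background to be read against. The higher ones were Gabrq and Gabrr2, whose EGF values all lay under the dim limit as deposited. Both entered the test only through the conditioned-medium arrays, so this higher count supports nothing by itself. To show the 2 genes that fell, the 250 bases before the RefSeq start of each are printed, from assembly GRCr8. Letters are in capitals where they match a motif searched on either strand. The Glra2 sequence is chrX:32651937-32652186 on the plus strand and the Gria4 sequence is chr8:10319882-10320131 on the minus strand, each written in the direction of transcription.
Glra2: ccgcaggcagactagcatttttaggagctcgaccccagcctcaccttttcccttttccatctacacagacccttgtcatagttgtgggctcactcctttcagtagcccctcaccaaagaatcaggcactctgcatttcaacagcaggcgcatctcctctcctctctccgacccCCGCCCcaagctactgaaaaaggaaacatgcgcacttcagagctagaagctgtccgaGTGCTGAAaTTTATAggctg
Gria4: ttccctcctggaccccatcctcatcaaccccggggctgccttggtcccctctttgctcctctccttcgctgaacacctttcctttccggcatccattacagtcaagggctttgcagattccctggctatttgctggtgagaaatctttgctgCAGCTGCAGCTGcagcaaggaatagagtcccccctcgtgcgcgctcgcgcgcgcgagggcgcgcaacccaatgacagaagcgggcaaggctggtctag
In Glra2 the capitals mark, in order, a GC box (GGGCGG read on the opposite strand), the opposite-strand match of TTCAGCAC and that of TATAAA. TTCAGCAC is the left part of RE1, the element bound by REST, a repressor of neuronal genes outside the nervous system. In Gria4 they mark 2 adjoining E-boxes, CAGCTG, the core recognised by basic helix-loop-helix factors. A match is a description of these letters and does not show that a factor binds.

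The promoter table held 33 of the 46 members, of which 22 were bright enough to be tested. The TTCAGCAC match was in 1 of these 33 (Glra2), against 0.855% of all 33469 promoters in the table cut to the same length. The GC box was in 14 of 33 members (42.4%), against 30.5% of all promoters, and in 9 of the 22 tested ones. The E-box CAGCTG, which reads the same on both strands, was in 7 of 33 (21.2%), against 12% of all: Gabrg3, Gabrr3, Glra3, Gria4, Grik1, Grin3a and Grm6. Only 3 of the 22 tested members held it (Gria4, Grik1 and Grm6), and the others named are dim. TAATCC, the core of the OTX and CRX sites of photoreceptor and bipolar genes, was in 3 (Gabrr2, Gabrr3 and Glra3; 6.34% of all). TATAAA was in 3 (Gabra3, Gabrr2 and Glra2; 12.9% of all), and the cyclic AMP element TGACGTCA was in 0 (1.59% of all). The median GC content was 57.6% for the members and 51.2% for all promoters.

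Glra2 encodes the alpha subunit of the fetal form of the glycine receptor, which in the adult retina is found on amacrine cells. Its deposited values were 9.64 and 9.86 log2 in EGF cultures, against 9.27 and 9.09 log2 under conditioned medium. Every conditioned-medium array lay below both EGF arrays, although the conditioned-medium arrays were the brighter ones overall. After quantile normalization the values were 9.87 and 9.96 against 9.001 and 9.012 log2. Glra2 fell 1.87-fold (-0.90 ± 0.08 SE, n = 2 per group, limma adjusted p = 2.88e-05, and 0.00686 on deposited values). Its second probe set was dimmer and spread more, at 4.53 and 5.21 log2 in EGF cultures, against 4.75 and 5.48 log2 under conditioned medium on the deposited scale, and differed by -0.54 ± 0.37 SE after quantile normalization.

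Glrb, the beta subunit that ties glycine receptors to the scaffold gephyrin, was also lower after quantile normalization (-0.70 ± 0.16 SE, limma adjusted p = 0.00817) but not as deposited (-0.15 log2, adjusted p = 0.664). Its deposited values were 6.38 and 6.77 log2 in EGF cultures, against 6.54 and 6.31 log2 under conditioned medium, so the groups overlapped on that scale. The remaining alpha subunits were dim: Glra1, the main adult form, at 3.74 and 3.65 against 5.55 and 4.50 log2 as deposited, and Glra3 at 2.88 and 2.98 against 3.27 and 3.04 log2. Glra1 therefore passed the limit of 4.77 log2 in 1 conditioned-medium array, and its second probe set stayed at 3.76 log2 or lower in all 4. The scaffold Gphn differed by -0.27 ± 0.10 SE and did not pass the threshold (limma adjusted p = 0.0699).

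**Figure D1:**
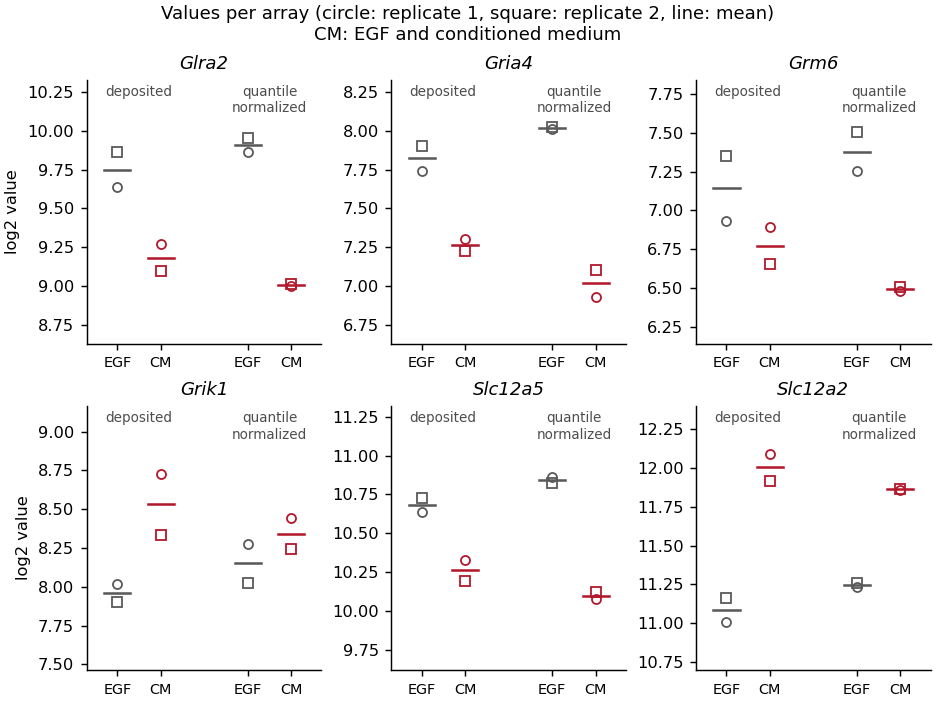
Log2 value on each array (vertical axis; the span is the same in all panels, the level is not) for Glra2, Gria4, Grm6, Grik1 and the chloride cotransporters Slc12a5 and Slc12a2, as deposited and after quantile normalization. Circles are replicate 1, squares replicate 2 and lines group means; for Glra2, Gria4 and Slc12a5 both conditioned-medium arrays lie below both EGF arrays on either scale, and for Slc12a2 both lie above.

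AMPA receptors carry most fast excitatory transmission. All 4 AMPA subunits passed as lower after quantile normalization, where 14.6% of all genes did, with differences of -0.45 to -1.001 log2. By the brightest probe set, both conditioned-medium arrays lay below both EGF arrays for all 4 on each scaling. The same held for 32.6% of all genes after quantile normalization, 5.18% as deposited and 51.9% with median-centred arrays. Gria4 alone passed on all 3 scalings. Its deposited values were 7.74 and 7.90 log2 in EGF cultures, against 7.30 and 7.23 log2 under conditioned medium, so both conditioned-medium arrays were low. It fell 2.00-fold (-1.001 ± 0.123 SE, n = 2 per group, limma adjusted p = 1.61e-04, and 0.0297 on deposited values). A second Gria4 probe set was lower after quantile normalization too (-0.83 ± 0.15 SE) and the remaining, dim one differed by -0.49 log2.

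Gria2, the subunit that keeps AMPA channels nearly impermeable to calcium, stood at 9.71 and 9.68 log2 in EGF cultures, against 9.65 and 9.50 log2 under conditioned medium as deposited. These values lie close together, and the difference was -0.12 log2 as deposited (limma adjusted p = 0.557) and -0.45 ± 0.09 SE after quantile normalization (adjusted p = 0.00275). Gria3 stood at 7.77 and 7.95 against 7.60 and 7.44 log2 as deposited, without overlap, and differed by -0.77 ± 0.11 SE after quantile normalization. Gria1 stood at 6.46 and 6.29 against 6.25 and 6.20 log2 and differed by -0.74 ± 0.20 SE. By the brightest probe set, each of the 4 AMPA subunits had a difference below 0 on all 3 scalings. Of all genes tested 10.8% were below 0 as deposited, 49.6% after quantile normalization and 67.2% with median-centred arrays. The second probe sets of Gria2 and Gria4 were also below 0 on all 3 scalings. The second Gria3 probe set differed by 0.29 log2 as deposited and by -0.33 ± 0.25 SE after quantile normalization. The dim Gria4 probe set was higher with conditioned medium as deposited (4.08 and 4.46 against 4.62 and 4.50 log2).

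Kainate receptors tune transmitter release and excitability, and 0 of their 4 tested subunits passed on all 3 scalings. Grik1, a subunit of OFF bipolar cells, stood at 8.02 and 7.90 log2 in EGF cultures, against 8.73 and 8.33 log2 under conditioned medium as deposited. That difference of 0.57 log2 passed in limma as deposited (adjusted p = 0.0135), but it was 0.19 ± 0.12 SE after quantile normalization (adjusted p = 0.261) and 0.00 log2 with median-centred arrays. Grik2 was lower after quantile normalization (-0.58 ± 0.14 SE, adjusted p = 0.00854), with deposited values of 6.93 and 7.21 against 7.11 and 6.88 log2 that overlapped. The high-affinity partners Grik4 (-0.39 ± 0.22 SE) and Grik5 (-0.23 ± 0.12 SE) did not pass on that scale. The 95% interval was -0.08 to 0.46 log2 for Grik1 and -0.50 to 0.04 log2 for Grik5, and both intervals hold 0.

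NMDA receptors need glutamate and a co-agonist and admit calcium. None of the 6 tested NMDA subunits passed on all 3 scalings. Grin1, the subunit that every NMDA receptor contains, stood at 6.97 and 7.45 log2 in EGF cultures, against 7.66 and 7.05 log2 under conditioned medium on the deposited scale, and the groups overlapped. It differed by -0.32 ± 0.17 SE after quantile normalization (limma adjusted p = 0.167). Grin2c was lower on that scale (-0.33 ± 0.10 SE, adjusted p = 0.0349) but not as deposited (0.05 log2), where its values of 8.46 and 8.43 against 8.62 and 8.36 log2 overlapped. Grin2b, the main early partner of Grin1, stood at 5.29 and 5.25 against 6.52 and 5.66 log2 as deposited and differed by 0.16 ± 0.25 SE after quantile normalization; its second probe set had -0.54 ± 0.26 SE. Grin2a (-0.35 ± 0.26 SE) and Grin2d (-0.12 ± 0.36 SE) had wide errors.

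Grin3b, a glycine-binding subunit that lowers calcium entry, is described without a test. Its deposited values were 4.08 and 4.57 log2 in EGF cultures, against 5.998 and 5.379 log2 under conditioned medium, and both conditioned-medium arrays were high. Both EGF values lay under the dim limit, so it too entered only through the group where it is high; it differed by 1.36 log2 as deposited, 0.79 log2 with median-centred arrays and 0.58 ± 0.27 SE after quantile normalization. Its relative Grin3a was too dim to be tested, at 3.91 and 4.57 against 4.83 and 4.28 log2. Grid1, a delta subunit that binds cerebellins at the synapse, stood at 4.97 and 4.73 against 5.70 and 5.03 log2 as deposited and differed by -0.26 ± 0.29 SE (adjusted p = 0.521).

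Metabotropic glutamate receptors were below 0 in 6 of 6 tested genes after quantile normalization, with a median of -0.49 log2, and 2 passed on that scale, where 49.6% of all genes were below 0 and 14.6% passed as lower. Grm6 is the receptor by which ON bipolar cells sense the glutamate of photoreceptors. Its deposited values were 6.93 and 7.35 log2 in EGF cultures, against 6.89 and 6.65 log2 under conditioned medium. The lowest EGF array lay only slightly above the highest conditioned-medium array. Grm6 differed by -0.88 ± 0.15 SE after quantile normalization (limma adjusted p = 0.00114) and by -0.37 log2 as deposited (adjusted p = 0.209), and its 2 dimmer probe sets differed by -0.63 and -0.36 log2 after quantile normalization.

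Grm2, an autoreceptor that damps glutamate release, differed by -0.61 ± 0.16 SE after quantile normalization (limma adjusted p = 0.0159). Its deposited values, 7.23 and 7.72 against 7.26 and 7.39 log2, overlapped. Grm8, a presynaptic receptor that acts in the same way, differed by -0.50 ± 0.18 SE (adjusted p = 0.0544) and by 0.00 log2 as deposited. Grm3 (-0.48 ± 0.24 SE), Grm4 (-0.44 ± 0.29 SE) and Grm7 (-0.33 ± 0.29 SE) did not pass on any scaling. Grm5 was dim, at 3.79 and 4.30 against 5.15 and 4.11 log2.

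**Figure D2:**
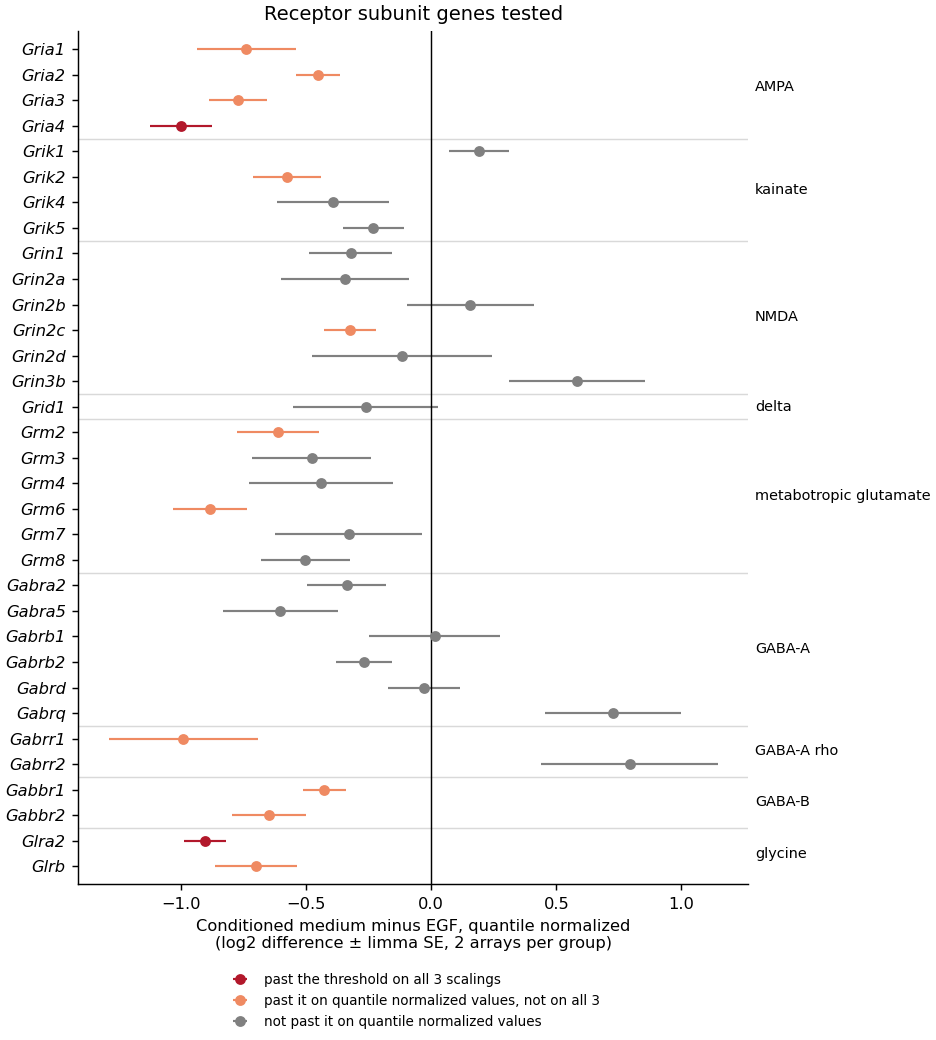
Quantile normalized log2 difference, conditioned medium minus EGF (horizontal axis; points, with bars of 1 limma SE), for the 33 receptor genes tested, by receptor class. Of the 33 points 27 lie below 0; Glra2 and Gria4 passed the threshold on all 3 scalings, 11 more passed after quantile normalization but not on all 3, and Gabrq, Gabrr2 and Grin3b lie farthest to the right.

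GABA-A receptors, which carry fast inhibition in mature neurons and excite many immature ones, had 0 of 6 tested subunits past the threshold on all 3 scalings. Gabra2 stood at 6.90 and 6.79 log2 in EGF cultures, against 7.032 and 6.996 log2 under conditioned medium on the deposited scale, a small step in the direction of the array medians, and differed by -0.34 ± 0.16 SE after quantile normalization. Gabrb2, a beta subunit of the most common receptor, stood at 8.30 and 8.29 against 8.60 and 8.20 log2 and differed by -0.27 ± 0.11 SE (limma adjusted p = 0.0938). Gabra5, of extrasynaptic receptors, differed by -0.60 ± 0.23 SE (adjusted p = 0.0698), and Gabrb1 (0.01 ± 0.26 SE) and the extrasynaptic subunit Gabrd (-0.03 ± 0.14 SE) lay near 0.

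Gabrq encodes the theta subunit. Its deposited values were 4.03 and 4.57 log2 in EGF cultures, against 6.13 and 5.45 log2 under conditioned medium, so it was over the dim limit only with conditioned medium. It therefore entered the test only through the group where it is high, and its differences of 1.49 log2 as deposited, 0.92 log2 with median-centred arrays and 0.73 ± 0.27 SE after quantile normalization are given as a description.

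The rho subunits form GABA receptors of retinal bipolar cells. Gabrr1 and Gabrr2 are neighbours with no protein-coding gene between them in the RefSeq gene order of GRCr8. Gabrr1 stood at 4.74 and 5.29 log2 in EGF cultures, against 5.26 and 4.33 log2 under conditioned medium on the deposited scale, and the groups overlapped. Gabrr2 stood at 3.45 and 4.68 against 5.81 and 5.41 log2, with both conditioned-medium arrays high. After quantile normalization Gabrr1 differed by -0.99 ± 0.30 SE (limma adjusted p = 0.0275) and Gabrr2 by 0.79 ± 0.35 SE. Both EGF values of Gabrr2 lay under the dim limit, so it entered the test only through the conditioned-medium arrays, and its difference is given as a description. The dim second probe sets had 0.11 log2 for Gabrr1 and 0.35 log2 for Gabrr2. Gabrr3 was dim, at 3.56 and 3.42 against 4.66 and 4.28 log2. The remaining adjacent pair with both genes tested, Gria2 and Glrb, had differences of -0.45 and -0.70 log2.

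GABA-B receptors require both of their subunits, Gabbr1, which binds GABA, and Gabbr2, which couples to the G protein. Gabbr2 stood at 6.92 and 7.36 log2 in EGF cultures, against 7.17 and 6.82 log2 under conditioned medium on the deposited scale, with overlap, and differed by -0.65 ± 0.15 SE after quantile normalization (limma adjusted p = 0.00685). Gabbr1 depended on the probe set. The brightest stood at 9.84 and 10.05 against 9.86 and 9.83 log2 as deposited and differed by -0.43 ± 0.09 SE after quantile normalization (adjusted p = 0.00329). The next brightest stood at 8.48 and 8.89 against 9.81 and 9.47 log2 as deposited, with both conditioned-medium arrays high. With every probe set fitted on its own, an analysis added after seeing the data, this next brightest probe set rose on all 3 scalings (0.62 ± 0.11 SE, limma adjusted p = 0.00246). The other 3 Gabbr1 probe sets had -0.29 to 0.11 log2. The platform gives all 5 the symbol Gabbr1, and which transcript each one reads is not given in the sources used here.

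**Figure D3:**
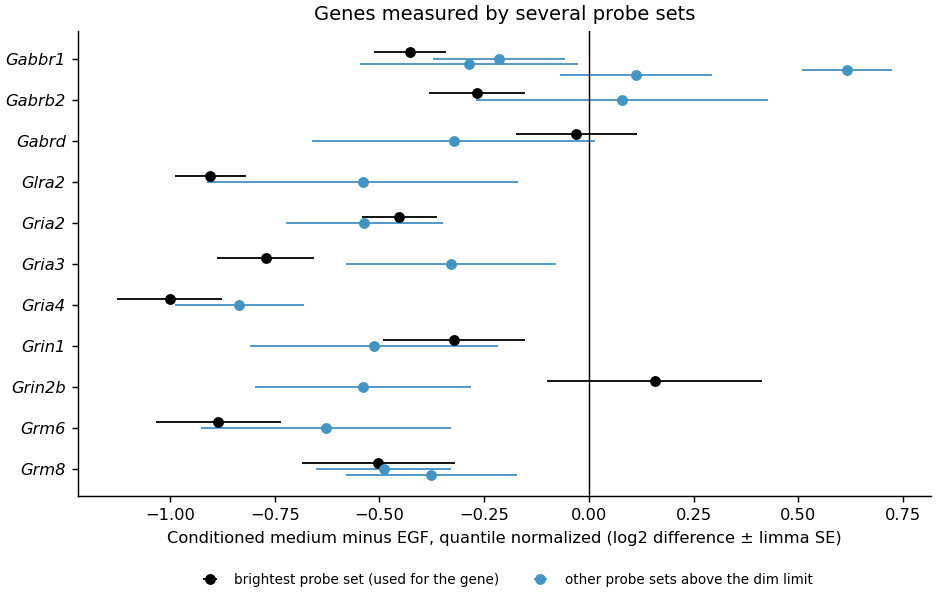
Quantile normalized log2 difference, conditioned medium minus EGF (horizontal axis; bars are 1 limma SE), for the genes with more than 1 probe set above the dim limit; black is the brightest probe set and blue the others. Gabbr1 spans -0.43 to 0.62 log2 and Grin2b -0.54 to 0.16 log2, whereas every probe set shown for Gria2, Gria3, Gria4, Grm6, Grm8, Grin1 and Glra2 lies below 0.

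The dim members were 13: 7 of 13 GABA-A subunits (Gabra3, Gabra4, Gabra6, Gabre, Gabrg1, Gabrg3 and Gabrp), Gabrr3, Glra1, Glra3, Grik3, Grin3a and Grm5. As deposited, both conditioned-medium arrays lay above both EGF arrays in 10 of these 13, against 70.9% of all genes tested. After quantile normalization this held for 4 of them and the reverse held for 4 (33.6% and 32.6% of all genes tested). These shares cover genes above the dim limit only, and no share over dim genes was computed. Gabre, the epsilon subunit, stood at 3.23 and 3.89 log2 in EGF cultures, against 5.11 and 5.20 log2 under conditioned medium on the deposited scale, and Grik3 at 4.03 and 3.89 against 5.29 and 4.95 log2. These 2 were the dim members whose conditioned-medium values both passed the limit of 4.77 log2. Gabrg3 stood at 2.88 and 3.04 against 4.58 and 4.28 log2, wholly under it. After quantile normalization Gabre differed by 0.87 log2 and Gabrg3 by 0.92 log2, whereas the second Gabre probe set had -0.51 log2.

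**Figure D4:**
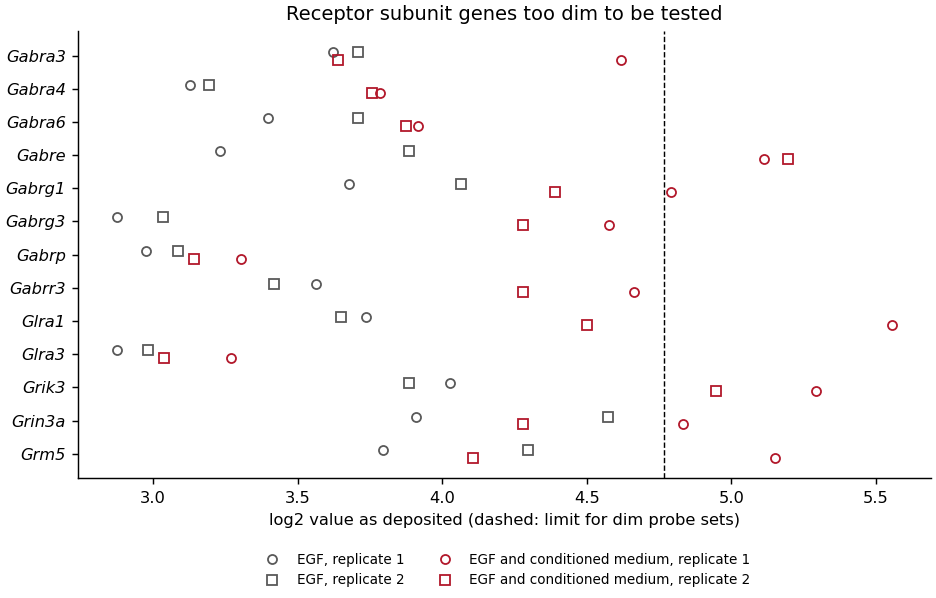
Deposited log2 value on each array (horizontal axis) of the 13 receptor genes under the dim limit of 4.77 log2 (dashed line); grey is EGF alone, red is EGF and conditioned medium, circles are replicate 1 and squares replicate 2. The red points of Gabre and Grik3 both lie beyond the limit; those of Gabrg3 lie above its grey points but under the limit.

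Read on single scalings, the balance of the receptor genes depended on how the arrays were equalised. After quantile normalization 13 of 33 tested members were lower (39.4%) and 0 higher, where 14.6% of all genes were lower and 16.5% higher. With median-centred arrays 16 members were lower and 3 higher (32.2% and 10.2% of all genes). As deposited, 2 were lower and 4 higher (1.78% and 40.4% of all genes), the higher ones being Gabrq, Gabrr2, Grik1 and Grin3b. Of these 4, Gabrq, Gabrr2 and Grin3b had both EGF values under the dim limit and entered only through the conditioned-medium arrays, so the higher count supports nothing by itself. The median member differed by -0.39 log2 after quantile normalization against 0.00 for all genes tested, by -0.42 against -0.16 log2 with median-centred arrays and by 0.14 against 0.40 log2 as deposited. The median of the members was thus below that of all genes on each scaling, and its own sign was not the same on all 3. Centring shifts every deposited difference by the same constant. The gap to all genes is therefore equal on deposited and median-centred values by construction, and these are not separate readings of it. After quantile normalization both conditioned-medium arrays lay below both EGF arrays in 22 of 33 members (32.6% of all genes) and above them in 3 (33.6% of all genes). As deposited, 11 members lay above (70.9% of all genes) and 6 below (5.18%), and with median-centred arrays 3 lay above (20.5%) and 21 below (51.9%). By class, the quantile normalized medians were -0.76 log2 for AMPA, -0.80 for glycine, -0.54 for GABA-B, -0.49 for metabotropic glutamate, -0.31 for kainate, -0.22 for NMDA and -0.15 for GABA-A subunits; these classes hold 2 to 6 tested genes, and differences between classes were not tested. After quantile normalization the median member differed by -0.32 log2 without EGF replicate 1 and -0.45 log2 without EGF replicate 2. It differed by -0.43 log2 with conditioned-medium replicate 1 omitted and -0.46 log2 with its replicate 2 omitted. The median of all genes tested lay between -0.01 and 0.01 log2 in these 4 omissions. Fewer members were then called lower on this scale. Fewer of all genes were called on all 3 scalings, which is a different rule, so these drops cannot be set against each other.

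**Figure D5:**
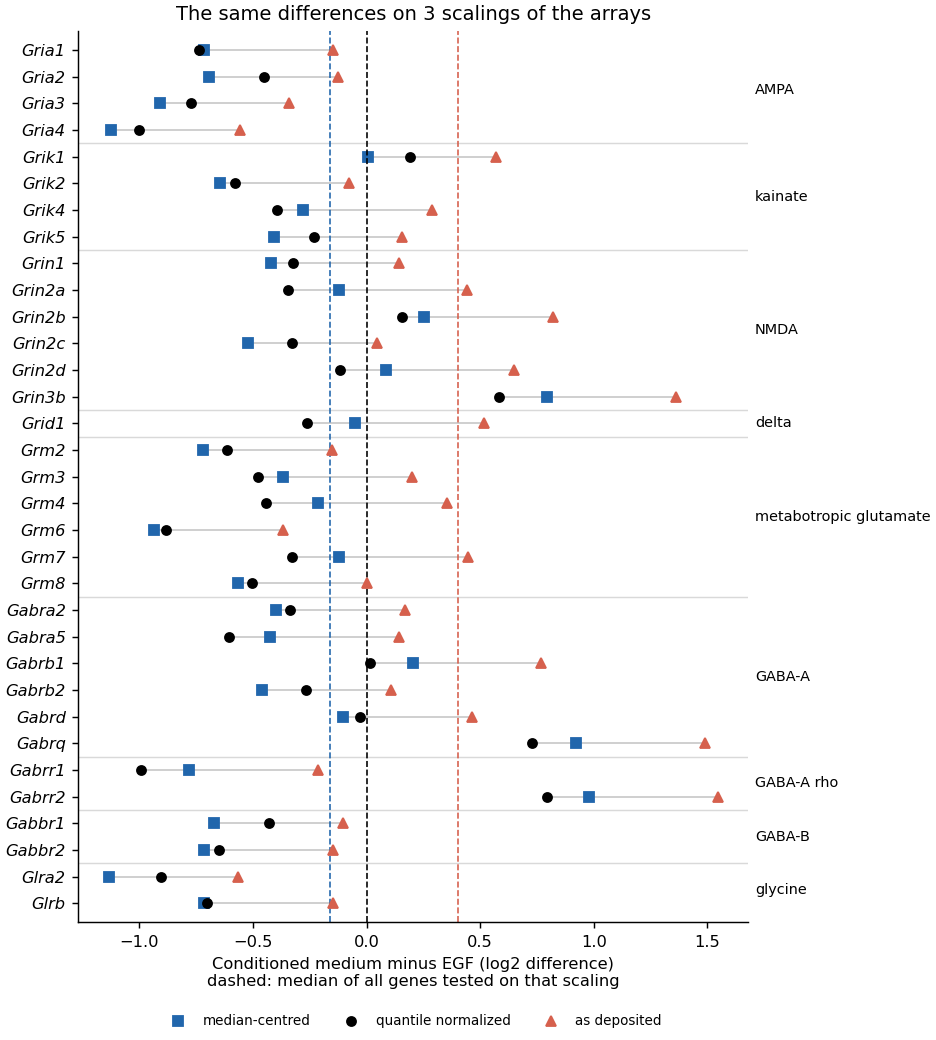
Log2 difference, conditioned medium minus EGF (horizontal axis), of the 33 tested receptor genes with median-centred (squares), quantile normalized (circles) and deposited (triangles) values; dashed lines are the medians of all 11492 genes on the same scalings (-0.16, 0.00 and 0.40 log2). Of the 33 triangles 21 lie above 0, and the AMPA, GABA-B and glycine genes lie below 0 on all 3 scalings.

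The calls of Glra2 and Gria4 on all 3 scalings were narrow on the deposited scale. Gria4 lost its call with each of the 4 arrays omitted in turn, and Glra2 with each one omitted except conditioned-medium replicate 1. The differences themselves stayed at -0.86 to -0.94 log2 for Glra2 and -0.93 to -1.10 log2 for Gria4 over these 4 omissions after quantile normalization.

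Other genes of the same signalling were taken from 4 lists. On all 3 scalings 1.78% of all genes fell and 9.12% rose. Among the 4 chloride cotransporters tested, the neuronal exporter Slc12a5 (KCC2) fell, and the importer Slc12a2 (NKCC1) and the widely expressed exporter Slc12a4 rose. Slc12a5 stood at 10.64 and 10.73 log2 in EGF cultures, against 10.33 and 10.19 log2 under conditioned medium on the deposited scale, and fell 1.68-fold (-0.75 ± 0.07 SE, limma adjusted p = 3.79e-05). Slc12a2 stood at 11.01 and 11.16 against 12.09 and 11.92 log2 and rose 1.53-fold (0.62 ± 0.06 SE, adjusted p = 4.98e-05). For both genes the groups lay apart on every scaling, in opposite directions. Slc12a4 rose 1.45-fold (0.53 ± 0.16 SE, adjusted p = 0.0242), and Slc12a7 did not pass on all 3 scalings (0.35 ± 0.11 SE). Slc12a5 and Slc12a4 lost their calls on all 3 scalings with each array omitted in turn, and Slc12a2 without EGF replicate 2; the quantile normalized differences of Slc12a5 then lay between -0.72 and -0.77 log2 and those of Slc12a2 between 0.60 and 0.63 log2.

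Of 33 tested auxiliary and anchoring proteins 3 fell and 0 rose (1.78% and 9.12% of all genes), with a median of -0.07 log2. The fallen genes were Shank1, a scaffold of excitatory synapses (-0.88 ± 0.09 SE), Plcl1, a protein that binds GABA-A receptors (-0.86 ± 0.09 SE), and Nptx1, a pentraxin that gathers AMPA receptors (-0.75 ± 0.07 SE). After quantile normalization alone 12 of the 33 were lower and 2 higher (14.6% and 16.5% of all genes). As deposited 3 were lower and 9 higher (1.78% and 40.4% of all genes). The higher ones after quantile normalization were the scaffold Dlg3 (0.32 ± 0.08 SE) and the trafficking protein Gabarap (0.22 ± 0.06 SE), both named after their values were seen. Among the AMPA receptor partners of the Cacng family, also named after their values were seen, Cacng2 (-0.83 ± 0.12 SE) and Cacng3 (-0.75 ± 0.15 SE) were lower on that scale, and Cacng4 (0.04 ± 0.20 SE) and Cacng7 (0.36 ± 0.24 SE) did not pass. Trak2, a trafficking factor, did not pass on all 3 scalings either (-0.66 ± 0.08 SE). Nptx1 and Shank1 lost their calls with each array omitted in turn, and Plcl1 with each one omitted except conditioned-medium replicate 1.

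Of 11 tested genes of transmitter synthesis and transport 3 fell and 1 rose (1.78% and 9.12% of all genes). The GABA-synthesizing enzyme Gad1 (-0.83 ± 0.07 SE), the vesicular glutamate transporter Slc17a7 of photoreceptors and bipolar cells (-1.06 ± 0.11 SE) and the glutamate uptake carrier Slc1a2 (-1.03 ± 0.13 SE) fell, and the glial glutamate carrier Slc1a3 rose (0.65 ± 0.08 SE, with 0.24 log2 over the mean of its probe sets). The 3 falls lost their calls with each array omitted in turn, except that those of Gad1 and Slc17a7 held with conditioned-medium replicate 1 omitted. Slc1a3 lost its call with EGF replicate 2 omitted and with conditioned-medium replicate 2 omitted. In the cascade behind the ON bipolar receptor Grm6, 0 of 3 tested genes passed on all 3 scalings: the G protein Gnao1 had -0.60 ± 0.09 SE, the channel Trpm1 0.78 ± 0.52 SE and the regulator Rgs7 0.06 ± 0.09 SE. Trpm1 stood at 5.46 and 3.59 log2 in EGF cultures, against 6.06 and 5.90 log2 under conditioned medium on the deposited scale, and EGF replicate 2 was low; the groups overlapped after quantile normalization.

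Markers of retinal cell types were read on the same arrays. Of 10 pan-neuronal markers 3 fell and 0 rose (Snap25, Tubb3 and Elavl4), with a median of -0.56 log2, and the mean of the list was 9.40 to 9.52 log2 in EGF cultures, against 8.87 to 8.91 log2 under conditioned medium after quantile normalization. Of 10 amacrine and horizontal cell markers 2 fell (Calb2 and Meis2), with a median of -0.54 log2 and list means of 9.16 to 9.22 against 8.65 to 8.67 log2. Of 3 tested bipolar markers Pcp2 fell (-1.23 ± 0.11 SE), and Trpm1 (0.78 ± 0.52 SE) and Prkca (-0.19 ± 0.20 SE) did not pass on all 3 scalings. Of 6 photoreceptor markers 5 fell. Of 3 tested ganglion cell markers Rbpms rose (1.33 ± 0.12 SE), Isl2 (-0.33 ± 0.15 SE) and Sncg (-0.10 ± 0.25 SE) did not pass, and Pou4f1 and Thy1 were dim. Of 6 tested markers of Müller glia and astrocytes Slc1a3 rose and 0 fell, with a median of 0.11 log2 and list means of 7.59 to 7.63 against 7.61 to 7.69 log2. Among these glial markers Rlbp1 (-0.70 ± 0.08 SE) and Glul (0.33 ± 0.07 SE) passed after quantile normalization but not on all 3 scalings, and Aqp4 had -0.57 ± 0.21 SE. Among cells other than neurons, 6 of 6 tested mesenchymal markers rose, with Lum and Dcn dim (list means over all 8 markers 5.28 to 5.31 against 6.38 to 6.41 log2). Of 8 tested microglia markers 5 rose, with Itgam and C1qb dim (5.12 to 5.27 against 5.94 to 5.95 log2). Of 4 tested endothelial markers 1 rose, Flt1, with Pecam1, Tek and Emcn dim. As deposited, both EGF values of Flt1 (3.40 and 3.59 log2) and of the microglia marker Aif1 (4.20 and 4.73 log2) lay under the dim limit. Flt1 and Aif1 thus entered the test only through the conditioned-medium arrays, and their rises are given as a description. By the same rule 1.78% of all genes fell and 9.12% rose. The part of these cell markers in the receptor differences was not tested.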

How the data were processed

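Total RNA of 4 cultures was labelled with biotin and hybridized to Affymetrix rat expression arrays, 1 array per sample. The deposited log2 values were made by the authors with RMA, a probe-set summary, in GenePattern, per the labels; the version and the normalization options are not given in the sources used here. Of the 31099 probe sets 20832 had 1 gene symbol in the platform annotation. Sizes came from quantile normalized values, and deposited and median-centred values had to give the same call. The test was limma 3.58.1 in R 4.3.3 (lmFit and trended eBayes; two-sided p-values, adjusted by Benjamini-Hochberg over all 11492 genes, threshold 0.05). On deposited values each gene's spread came wholly from the intensity trend, so its p-values there rest on pooling over genes. All 46 members matched RefSeq genes by identifier. The members and lists were chosen with earlier results of these data known. Members with values in every array were those called, the brightest and the most changed of each class, and, beyond that rule, others chosen after their values were seen. With 2 arrays per group, precision is limited by their number.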

Additional observations from a re-analysis of the deposited data

How the results depend on the processing

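On all 3 scalings 0 receptor genes were higher and 2 lower. The higher count was 4 on deposited and 3 on median-centred values alone (40.4% and 10.2% of all genes). It was 3 with no filter on dim probe sets, where 1050 of 14218 genes rose. It was 1 with all probe sets of a gene averaged, 2 without the intensity trend and 1 with every probe set fitted on its own. Of all 11492 genes 1050 rose with probe sets averaged and 925 without the trend. Of 21769 probe sets fitted on their own 1579 rose. It stayed 0 on quantile normalized values alone (16.5% of all genes) and with the lowest 40% left out, where 965 of 10449 genes rose. The 3 on median-centred values were Gabrq, Gabrr2 and Grin3b, which entered only through the conditioned-medium arrays. The count with no filter took in Gabre and Gabrg3, dim members described above without a test. These higher counts support nothing by themselves. The lower count was 13 on quantile normalized and 16 on median-centred values alone (14.6% and 32.2% of all genes). It was 1 with no filter, where 202 of 14218 genes fell. With probe sets averaged it was 0 (also 0 at an unadjusted p under 0.05), and 148 of 11492 genes fell, against 205 in the main fit. Calls were also lost when 1 array was left out, as described above. With the replicate number as a block, the counts were 0 higher and 0 lower. At an unadjusted p under 0.05 in limma they were 2 higher and 1 lower, and the share of all genes at that rule was not computed. By the adjusted rule 1026 of 11492 genes rose and 28 fell with this block. Of the 48 receptor and pathway genes tested by name 9 lost a call, and most of the 48 had no call to lose. Those with a call were Glra2, Gria4, Nptx1, Shank1, Plcl1, Slc12a5, Slc12a2, Slc12a4, Gad1, Slc17a7, Slc1a2 and Slc1a3. Most of these calls were therefore lost. No label ties the replicate numbers to a shared pool. The deviations of same-numbered arrays correlated across genes at -0.03 (quantile normalized) and -0.12 (deposited), over only 2 pairs. No call changed direction under these settings. The deposited values, which lie higher with conditioned medium, limit the falls that can be called on all 3 scalings.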
